A study of Mus musculus with 8 samples.

Results

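The genes described here are 10 of the 51789 genes in the deposited count table: the transcription factors Snai1, Snai2, Zeb1, Zeb2, Twist1 and Twist2 and the mesenchymal markers Cdh2, Vim, Fn1 and S100a4. They were chosen by name, as the usual drivers and markers of epithelial-mesenchymal transition (EMT), with earlier results of these data known. Each was read in all 8 libraries. The libraries were whole abdominal mammary glands of female immunocompetent C57BL/6 mice, taken 6 weeks after a single injection of small extracellular vesicles (sEVs). The donor cells, the metastatic AT3 line of mouse mammary adenocarcinoma, released the vesicles in normoxia (sEVNORM, 3 libraries) or hypoxia (sEVHYP, 2 libraries), and sEVCTRL (3 libraries) was prepared in the same way from medium that had held no cells. The labels give no age and name no engineered allele in the recipient mice. Each group therefore received vesicles, or their control preparation, from outside the animal, and no gene of the host was altered by design.

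In EMT, epithelial cells lose their junctions and polarity and take on the shape and motility of mesenchymal cells. Snail, ZEB and Twist family factors bind E-box sequences, and the Snail and ZEB factors are best known for repressing E-cadherin and other epithelial genes through them. In a mammary gland the same genes are also active in stromal fibroblasts, basal cells and immune cells, so their transcripts in whole tissue come from many cell types.

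The study followed Snai1, Snai2, Twist1, Lbx1 and Nanog by RT-PCR in luminal cells, and the comparisons below ask whether EMT genes differed in level between whole glands. None of the 10 genes differed between groups past the threshold of an unadjusted P of 0.05, and Vim had the highest level per length in every library. What varied was the level of some genes between glands of the same group. The coefficient of variation was highest with sEVCTRL for Snai2 (30.8%), Twist1 (39.9%), Fn1 (28.4%) and S100a4 (47.9%), but with sEVNORM (36.9%) and sEVHYP (33.2%) for Twist2, where it was 11.1% with sEVCTRL.

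Total counts per library were 18194996 to 24622569, and all 10 genes passed the filter on low counts, as did 17858 genes in all. Counts were scaled to CPM (a gene's counts relative to the library total, with edgeR's TMM factors), and differences are log2 fold changes from edgeR's two-sided quasi-likelihood test in 1 model of the 3 groups, with the standard error (SE). Luminal markers (summed level 1079 to 2281 CPM) and white adipocyte markers (5049 to 9804 CPM) were present in every library, as the labelled tissue requires. Skeletal muscle markers were also present and ranged from 29.7 CPM in sEVNORM replicate 2 to 13591 CPM in sEVHYP replicate 2. With sEVNORM all 3 libraries (29.7 to 3233 CPM) lay below both sEVHYP libraries (4931 and 13591 CPM), and the sEVCTRL libraries spanned 702 to 9458 CPM. Keratinocyte and skin markers were at 85.8 CPM in sEVNORM replicate 3 and at 9.24 to 13.2 CPM elsewhere. The study describes the replicates as animals, while the labels do not tie a library to an animal.

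The E-box bound by the Snail and ZEB factors was searched for as CAGGTG or its reverse complement CACCTG in RefSeq promoter windows (GRCm38.p6) of 300 bases, from 250 bases before to 50 after a gene's start. Of 32851 windows, 20.2% held it. Among the members it was searched in 9 windows of 6 genes (Snai1, Zeb2, Twist1, Twist2, Vim and S100a4). Several of these windows belong to Zeb2, and some of those overlap. The motif was in 1 window, that of Snai1. Of the epithelial genes listed as repressed in EMT, 17 had a window and 13 held it, in 16 of 22 windows, some of which belong to the same gene and overlap. The windows of Snai1, of Epcam (an epithelial adhesion molecule) and of Crb3 (a polarity protein) are shown because they are a factor and a pair of textbook targets with the motif. They were picked after the search, and capitals mark each match. They lie at chr2:167537945-167538244, chr17:87635729-87636028 and chr17:57061951-57062250, all on the + strand.
Snai1: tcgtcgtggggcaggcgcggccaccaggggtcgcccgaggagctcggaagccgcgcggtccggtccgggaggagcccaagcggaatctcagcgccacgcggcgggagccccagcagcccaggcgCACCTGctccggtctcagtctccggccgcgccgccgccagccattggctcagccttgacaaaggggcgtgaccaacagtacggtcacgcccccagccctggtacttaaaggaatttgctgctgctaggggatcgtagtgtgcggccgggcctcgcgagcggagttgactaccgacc
Epcam: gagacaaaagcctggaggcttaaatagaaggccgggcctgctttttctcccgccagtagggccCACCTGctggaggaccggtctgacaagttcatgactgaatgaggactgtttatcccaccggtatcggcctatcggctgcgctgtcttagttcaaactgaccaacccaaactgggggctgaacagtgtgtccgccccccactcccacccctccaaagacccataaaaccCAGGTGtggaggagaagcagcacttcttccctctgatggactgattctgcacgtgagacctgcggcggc
Crb3: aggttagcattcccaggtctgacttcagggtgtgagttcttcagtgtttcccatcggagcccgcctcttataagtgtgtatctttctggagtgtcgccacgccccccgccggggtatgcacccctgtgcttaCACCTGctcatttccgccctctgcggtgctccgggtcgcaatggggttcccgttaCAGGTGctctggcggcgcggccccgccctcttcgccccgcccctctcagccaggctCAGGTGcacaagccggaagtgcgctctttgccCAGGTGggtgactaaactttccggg
A match is a description of these letters and not of binding in these glands.

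**Figure D1:**
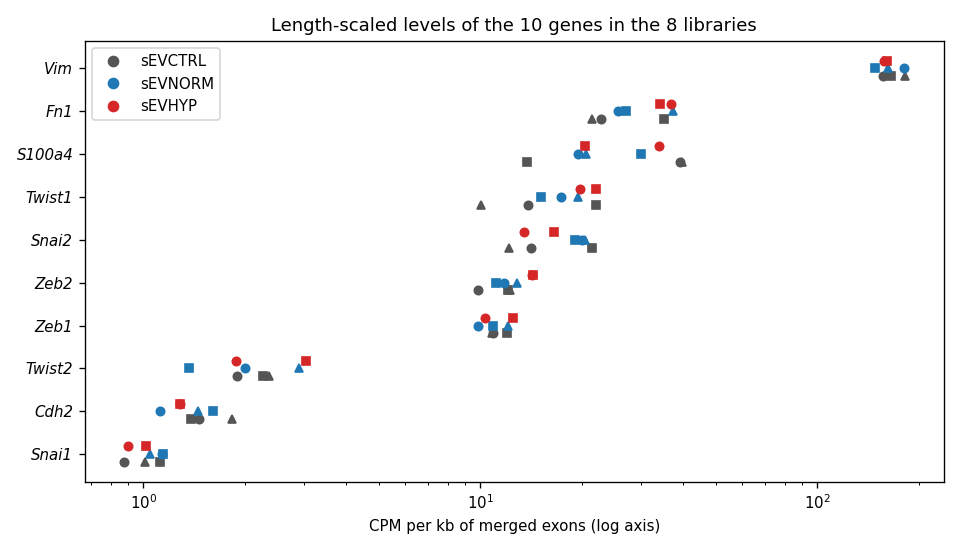
Level of each gene in CPM per kb of merged exons (log axis), 1 point per library, colored by group (circle, square and triangle are replicates 1, 2 and 3). Vim sits apart at 148 to 182 CPM per kb, 6 genes lie between 9.86 and 39.6, and Twist2, Cdh2 and Snai1 lie between 0.877 and 3.05.

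Levels of different genes were compared per length, as CPM per kb of the gene's merged exons. Vim, the intermediate filament of mesenchymal cells, had the highest median over the 8 libraries, 161 CPM per kb (148 to 182), and lay above Fn1 in 8 of 8 libraries. Fn1, which encodes the matrix protein fibronectin, had a median of 30.6 CPM per kb (21.5 to 37.3). S100a4, a small calcium-binding protein of motile cells, had 25.3 CPM per kb (13.8 to 39.6), and Fn1 was above it in 5 of 8 libraries, so this pair was not separated. Twist1 (18.5 CPM per kb, 10.1 to 22.0) and Snai2 (17.9, 12.2 to 21.5) were not separated either, with Twist1 higher in 3 of 8 libraries. Zeb2 (12.2 CPM per kb, 9.87 to 14.3) lay above Zeb1 (10.9, 9.86 to 12.5) in 7 of 8 libraries, although the ranges overlapped. A wide gap separated these genes from Twist2 (2.13 CPM per kb), Cdh2 (1.42) and Snai1 (1.04). Zeb1 was above Twist2 in 8 of 8 libraries, and the range of Cdh2 (1.12 to 1.84 CPM per kb) overlapped those of Twist2 (1.37 to 3.05) and Snai1 (0.877 to 1.148), which did not overlap each other. The merged exons of Zeb2 cover 19942 bases over all its annotated transcripts, which lowers its level per kb if the glands use shorter ones.

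**Figure D2:**
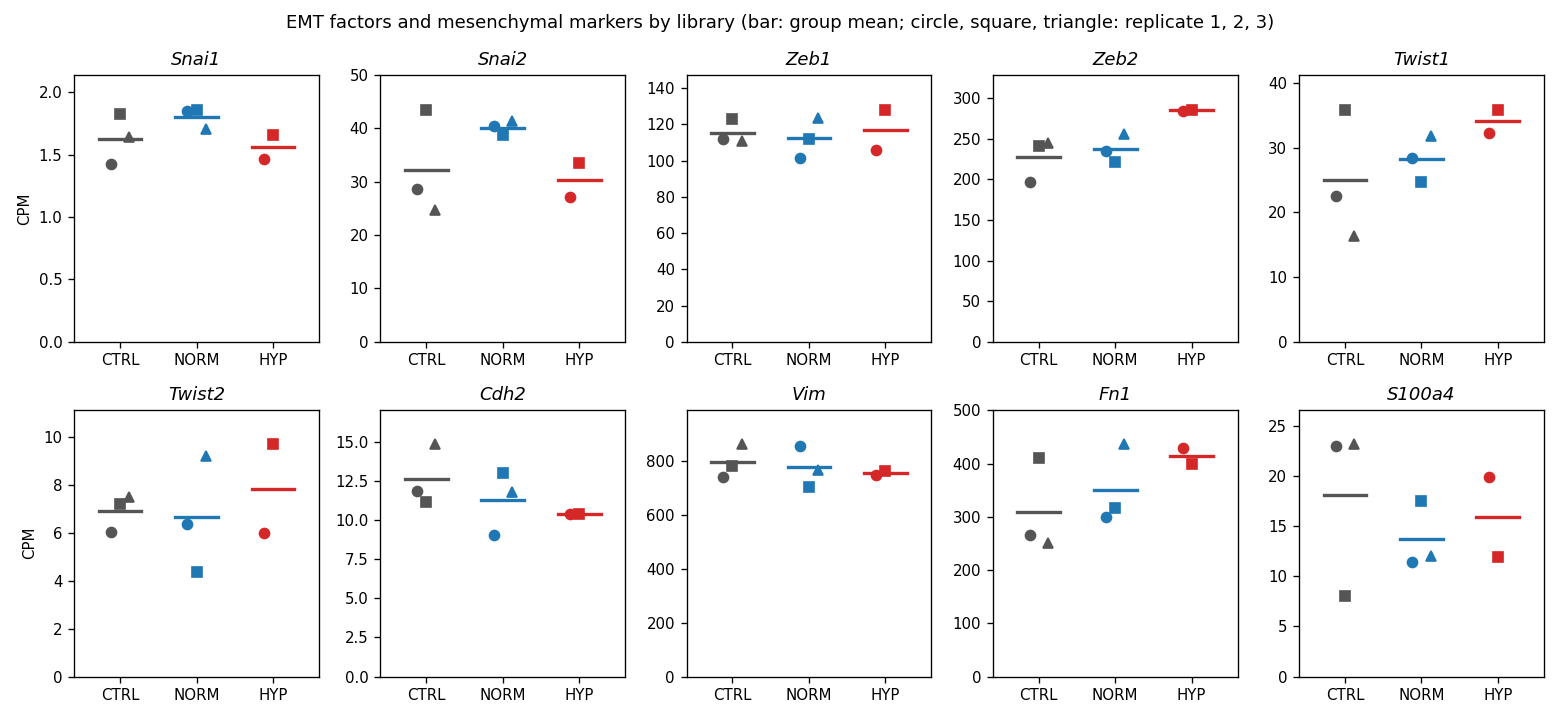
CPM of each gene in each library (y axis from 0, a separate scale per gene), with the group mean as a bar and replicates 1, 2 and 3 as circle, square and triangle. Both sEVHYP points of Zeb2 (284 and 286 CPM) lie above all other libraries, and sEVCTRL replicate 2 (square) stands away from the other sEVCTRL libraries for Snai2, Twist1, Fn1 and S100a4.

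Between sEVHYP and sEVNORM, 0 of the 10 genes had an unadjusted P under 0.05 (edgeR quasi-likelihood test), a threshold that 3.95% of all tested genes passed. Against sEVCTRL, 0 of 10 passed with sEVHYP, where 2.45% of genes did, and 0 of 10 passed with sEVNORM, where 1.63% did. After Benjamini-Hochberg adjustment over all tested genes, 0% of genes were called in each of the 3 comparisons by edgeR (DESeq2 on only the 2 groups compared called 83, 14 and 3 genes, none a member). The edgeR adjusted P of each of the 10 genes was 1 in all of them. The median log2 fold change of the 10 genes was 0.14 for sEVHYP against sEVNORM, -0.02 for sEVHYP against sEVCTRL and 0.01 for sEVNORM against sEVCTRL, beside medians of -0.02, -0.02 and -0.00 over all tested genes. The comparisons share libraries, so they are not independent of each other. In whole glands, a lower level may mean fewer cells of a type or less RNA per cell, which cannot be told apart here.

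Groups that did not overlap were seen for 4 of the 10 genes between sEVHYP and sEVNORM, where 22.8% of all tested genes did not overlap. Snai1 and Snai2 were lower, and Zeb2 and Twist1 higher, in both sEVHYP libraries than in all sEVNORM libraries. Between sEVHYP and sEVCTRL this held for 2 of 10 genes (12.8% of all tested genes), with Zeb2 higher and Cdh2 lower with sEVHYP. Between sEVNORM and sEVCTRL it held for 0 of 10 (4.86% of all tested genes).

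Snai1 encodes Snail, a zinc finger repressor of E-cadherin (ENSMUSG00000042821, GRCm38 chromosome 2, 167538195 to 167542814, + strand). It was the least abundant member, at 28, 40 and 30 counts with sEVCTRL, 46, 42 and 36 with sEVNORM, and 32 and 31 with sEVHYP. In CPM these were 1.42, 1.82 and 1.64 with sEVCTRL, 1.85, 1.86 and 1.70 with sEVNORM, and 1.46 and 1.66 with sEVHYP. Both sEVHYP libraries lay just under the lowest sEVNORM library, and the sEVCTRL libraries spanned nearly all of these values. The log2 fold change of sEVHYP against sEVNORM was -0.21 (SE 0.34), with a 95% confidence interval of the fold from 0.512 to 1.46. Against sEVCTRL it was -0.06 with sEVHYP (SE 0.34) and 0.15 with sEVNORM (SE 0.30). At this depth and number of libraries, any difference inside this interval remains compatible with the counts.

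Snai2 encodes Slug, the Snail family member of basal mammary and stromal cells (ENSMUSG00000022676, chromosome 16, 14705852 to 14709385, + strand). It was at 28.7, 43.5 and 24.7 CPM with sEVCTRL, 40.4, 38.7 and 41.4 CPM with sEVNORM, and 27.2 and 33.5 CPM with sEVHYP. The sEVNORM libraries were close together (40.2 ± 1.37 CPM, SD, n = 3) and above both sEVHYP libraries, while sEVCTRL replicate 2 was the highest of all. The fold of sEVHYP against sEVNORM was 0.756 (95% confidence interval 0.518 to 1.10), a log2 fold change of -0.40 (SE 0.24). This was the one member whose call depended on how the spread was estimated. When only the 2 groups were fitted, the log2 fold change stayed at -0.40 and an unadjusted P of 0.05 was passed with edgeR (adjusted P = 0.81) and with DESeq2 (adjusted P = 0.708). Against sEVCTRL, Snai2 gave -0.09 with sEVHYP (SE 0.24) and 0.31 with sEVNORM (SE 0.21). Snai2 had 15.0 to 24.3 counts for each count of Snai1 within a library.

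Zeb1 and Zeb2 encode zinc finger and homeodomain repressors that are counteracted by the miR-200 family in epithelial cells. Zeb1 (ENSMUSG00000024238, chromosome 18) was at 112, 123 and 111 CPM with sEVCTRL, 101, 112 and 124 CPM with sEVNORM, and 106 and 128 CPM with sEVHYP. All 3 groups overlapped. Its fold of sEVHYP against sEVNORM was 1.04, with one of the narrowest intervals of the members (95% confidence interval 0.813 to 1.33), and against sEVCTRL the fold was 1.01 with sEVHYP and 0.973 with sEVNORM.

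Zeb2 (ENSMUSG00000026872, chromosome 2, 44983632 to 45117395, - strand), which macrophages and stromal cells express as well, was at 197, 241 and 245 CPM with sEVCTRL and 235, 221 and 256 CPM with sEVNORM. With sEVHYP it was at 284 and 286 CPM, above each of the other 6 libraries. Its log2 fold change with sEVHYP was 0.32 against sEVCTRL (SE 0.16, fold 1.25, 95% confidence interval 0.969 to 1.62) and 0.26 against sEVNORM (SE 0.16, fold 1.2, 95% confidence interval 0.929 to 1.55). With each library left out in turn, or with another tool, filter or scaling, the value against sEVCTRL ranged from 0.22 to 0.38 and did not pass an unadjusted P of 0.05. sEVNORM against sEVCTRL gave 0.06 (SE 0.15). Within a library, Zeb2 had 1.76 to 2.32 counts for each count of Zeb1 in the 6 sEVCTRL and sEVNORM libraries and 2.68 and 2.23 with sEVHYP, so the ratio overlapped between groups. The ratio of Snai2 to Zeb2 counts was 0.161 to 0.175 with sEVNORM and 0.0958 and 0.117 with sEVHYP, but the sEVCTRL libraries covered 0.101 to 0.180. Macrophage markers, which could carry Zeb2, summed to 1671 and 1206 CPM in the sEVHYP libraries and to 1520 to 1781 CPM in the others. The mean log2 CPM of these markers was 6.70 and 6.33 with sEVHYP, 6.51 to 6.64 with sEVCTRL and 6.25 to 6.89 with sEVNORM. All 8 markers were above 0 in every library. Basal epithelial markers summed to 519 and 522 CPM with sEVHYP, above sEVNORM (329 to 433 CPM) and sEVCTRL (320 to 492 CPM). None of the 8 markers was at 0. Acta2 was the largest part of this sum (315 and 299 CPM with sEVHYP). Acta2, Cnn1 and Krt17 were higher in both sEVHYP libraries than in all others, and Oxtr was higher than with sEVCTRL. Krt5, Krt14, Trp63 and Myh11 overlapped the other groups. The mean log2 CPM of the list overlapped too (4.52 and 4.66 with sEVHYP, up to 4.61 with sEVCTRL and 4.56 with sEVNORM). The part of the macrophage and basal markers in the Zeb2 values was not tested. The antisense gene Zeb2os shares 653 exon bases with Zeb2 and had 75 to 197 counts. Whether counting used the strand is not stated, so reads of the pair cannot be told apart.

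Twist1 and Twist2 encode related basic helix-loop-helix factors of mesenchymal cells. Twist1 (ENSMUSG00000035799, chromosome 12, 33957671 to 33959829, + strand) was at 22.5, 35.9 and 16.4 CPM with sEVCTRL, 28.3, 24.6 and 31.8 CPM with sEVNORM, and 32.3 and 35.9 CPM with sEVHYP. Both sEVHYP libraries lay above the sEVNORM libraries, and sEVCTRL held both the lowest library and one level with the highest. For Twist1 the log2 fold change was 0.27 for sEVHYP against sEVNORM (SE 0.29, fold 1.21, 95% confidence interval 0.763 to 1.90), 0.45 for sEVHYP against sEVCTRL (SE 0.29) and 0.18 for sEVNORM against sEVCTRL (SE 0.26). Twist2 (ENSMUSG00000007805, chromosome 1, 91801461 to 91848028, + strand) was at 6.04, 7.20 and 7.49 CPM with sEVCTRL, 6.35, 4.34 and 9.22 CPM with sEVNORM, and 5.997 and 9.68 CPM with sEVHYP. Its groups overlapped in each comparison, and the log2 fold change of sEVHYP against sEVNORM was 0.24 (SE 0.34, fold 1.18, 95% confidence interval 0.688 to 2.03). Against sEVCTRL Twist2 gave 0.18 with sEVHYP (SE 0.35) and -0.06 with sEVNORM (SE 0.31). The antisense gene Gm29100 shares 1477 exon bases with Twist2 but had 5 to 31 counts.

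Among the mesenchymal markers, Vim and Cdh2 varied least between libraries. Cdh2 encodes N-cadherin (ENSMUSG00000024304, chromosome 18) and was at 11.8, 11.2 and 14.8 CPM with sEVCTRL, 9.04, 13.0 and 11.8 CPM with sEVNORM, and 10.3 and 10.4 CPM with sEVHYP. Both sEVHYP libraries lay below the sEVCTRL libraries and inside the sEVNORM range. Its log2 fold change was -0.28 for sEVHYP against sEVCTRL (SE 0.23, fold 0.823, 95% confidence interval 0.575 to 1.18), -0.12 for sEVHYP against sEVNORM (SE 0.23) and -0.16 for sEVNORM against sEVCTRL (SE 0.20).

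Vim (ENSMUSG00000026728, chromosome 2, 13573927 to 13582826, + strand) was at 743, 783 and 863 CPM with sEVCTRL, 859, 704 and 769 CPM with sEVNORM, and 750 and 762 CPM with sEVHYP. Its groups overlapped fully, and the highest library was 1.23 times the lowest. The SD of its log2 CPM over the 8 libraries was 0.101, lower than that of all but 2.81% of tested genes, where the median SD was 0.317. Spread falls with the level of a gene, and Vim was more abundant than 99.3% of tested genes. The fold of sEVHYP against sEVNORM was 0.973 (95% confidence interval 0.742 to 1.28), and against sEVCTRL it was 0.950 with sEVHYP and 0.976 with sEVNORM.

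Fn1 (ENSMUSG00000026193, chromosome 1, 71585520 to 71653200, - strand) was at 267, 410 and 251 CPM with sEVCTRL, 300, 316 and 436 CPM with sEVNORM, and 429 and 398 CPM with sEVHYP. Each of the other groups had 1 library at the sEVHYP level, so the groups overlapped. The log2 fold change was 0.42 for sEVHYP against sEVCTRL (SE 0.26, fold 1.34, 95% confidence interval 0.897 to 1.99), 0.24 for sEVHYP against sEVNORM (SE 0.26) and 0.18 for sEVNORM against sEVCTRL (SE 0.23).

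S100a4 (ENSMUSG00000001020, chromosome 3, 90603771 to 90606045, + strand) varied most of the 10 genes, by 2.87 times between the lowest and the highest library. It was at 22.9, 8.07 and 23.1 CPM with sEVCTRL, 11.4, 17.5 and 12.1 CPM with sEVNORM, and 19.9 and 11.9 CPM with sEVHYP. The sEVCTRL group alone held the lowest library and both of the highest. The log2 fold change was -0.40 for sEVNORM against sEVCTRL (SE 0.39), 0.22 for sEVHYP against sEVNORM (SE 0.44, fold 1.17, 95% confidence interval 0.589 to 2.31) and -0.18 for sEVHYP against sEVCTRL (SE 0.44). Gm42674 shares 302 exon bases with S100a4 on the same strand and had 0 to 12 counts.

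**Figure D3:**
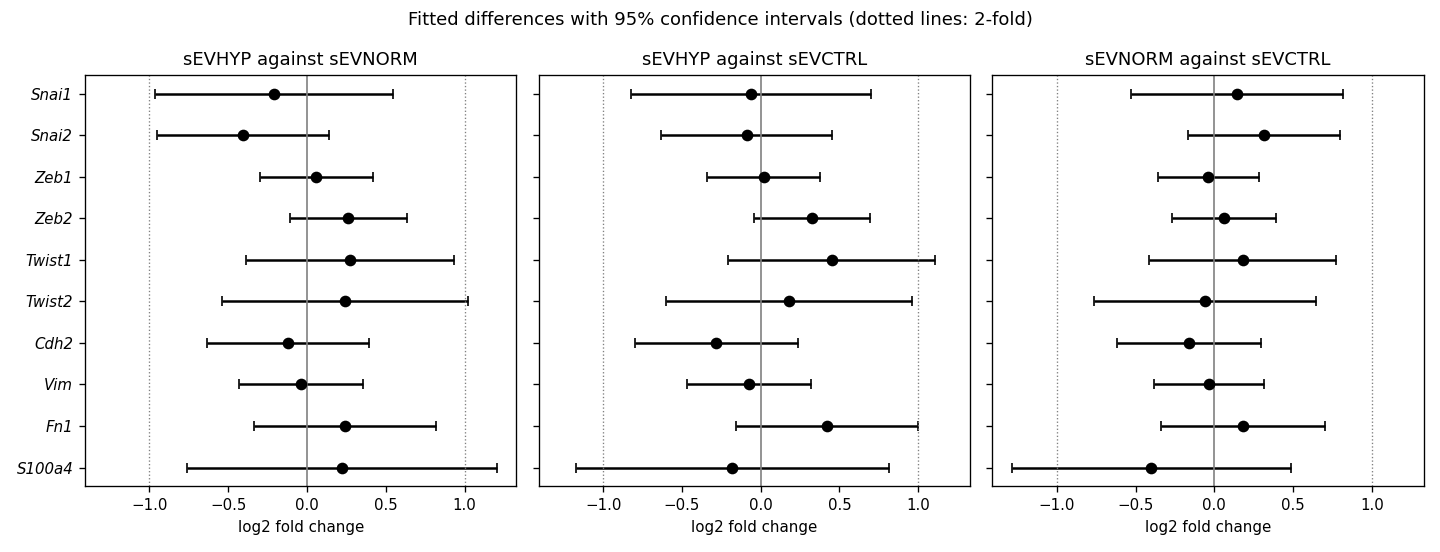
Fitted log2 fold change (point) and 95% confidence interval (line) of each gene in the 3 comparisons, with dotted lines at a 2-fold change. Every interval includes 0, and the widest, that of S100a4 for sEVHYP against sEVCTRL, runs from -1.17 to 0.81.

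The plot of fitted intervals shows how large a difference the data leave room for. For sEVHYP against sEVNORM the interval lay wholly inside a 2-fold change in either direction for 8 of 10 genes, all but Twist2 and S100a4. For sEVHYP against sEVCTRL it did so for 8 of 10, all but Twist1 and S100a4, and for sEVNORM against sEVCTRL for 9 of 10, all but S100a4. Inside 1.5-fold lay Zeb1 and Vim in each comparison, joined by Zeb2 for sEVNORM against sEVCTRL. These intervals hold for the whole gland, and a difference in a small share of its cells could be larger.

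**Figure D4:**
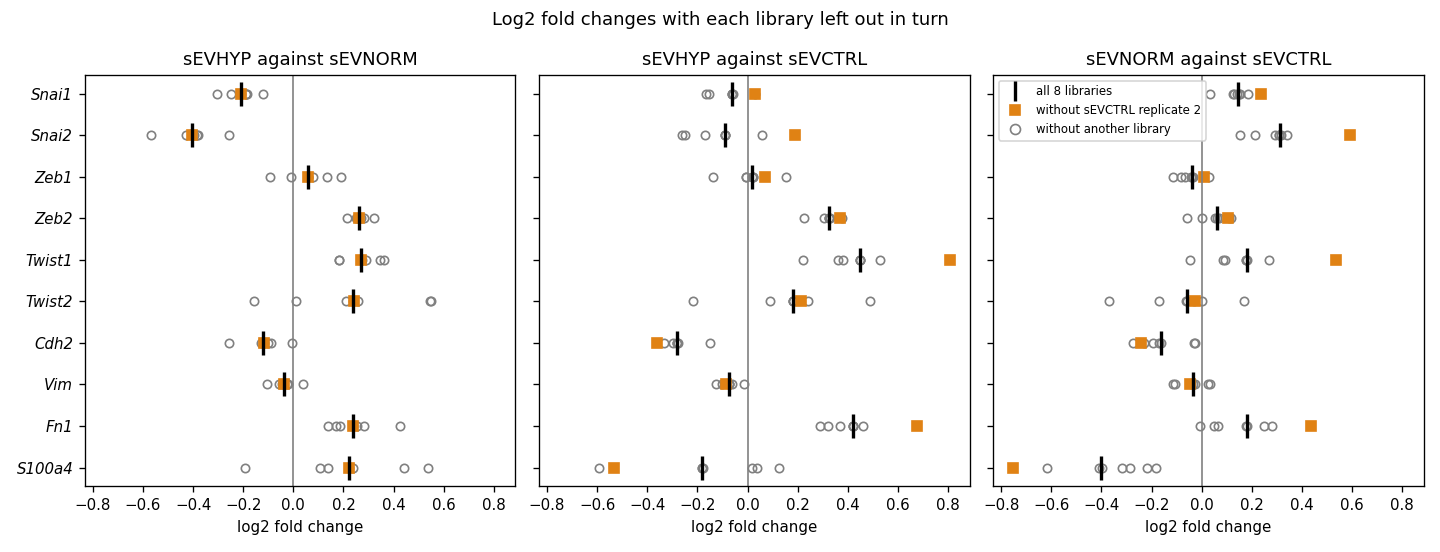
Log2 fold change of each gene with all 8 libraries (black bar), without sEVCTRL replicate 2 (orange square) and without each of the other 7 libraries (open circles), for the 3 comparisons. Without sEVCTRL replicate 2 the values of Twist1 moved from 0.45 to 0.81 against sEVCTRL with sEVHYP, and those of Snai2 from 0.31 to 0.59 with sEVNORM.

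One library, sEVCTRL replicate 2, set the spread of several members. It had the highest Snai2, the lowest S100a4, and Twist1 and Fn1 at the level of the sEVHYP libraries. It was picked because, of the 8 libraries, leaving it out moved the number of passing members most. That choice lowers the spread of these members, so the counts below cannot be read as an excess over the shares beside them. Without this library, 3 of 10 genes passed an unadjusted P of 0.05 for sEVNORM against sEVCTRL, where 5.75% of all tested genes did. These were Snai2 (log2 fold change 0.59, SE 0.16), Twist1 (0.54, SE 0.19) and S100a4 (-0.75, SE 0.27), each with an edgeR adjusted P of 0.785. For sEVHYP against sEVCTRL, 2 of 10 passed, where 8.32% of all tested genes did, and these were Twist1 (0.81, adjusted P = 0.56) and Fn1 (0.68, adjusted P = 0.569). For sEVHYP against sEVNORM the fold changes barely moved, but the smaller shared spread brought Snai2 (-0.40, adjusted P = 0.888) under the threshold, 1 of 10 genes beside 5.57% of all. sEVCTRL replicate 2 was also the highest sEVCTRL library for skeletal muscle (9458 CPM, the others 702 and 2580), fibroblast (6695 CPM, the others 4295 and 4432), luminal (2103 CPM, the others 1079 and 1474) and basal epithelial markers (492 CPM, the others 320 and 410), and it had the fewest B and T cell markers of its group (1282 CPM, the others 2274 and 1360). Prlr was the largest part of the luminal sum (1145 CPM, the others 486 and 636). Krt8, Krt18, Krt19 and Wfdc18 were higher in sEVCTRL replicate 3, while Epcam, Elf5, Esr1, Pgr and Csn3 were highest in sEVCTRL replicate 2. By mean log2 CPM, sEVCTRL replicate 2 was also the highest of its group for the luminal list (6.97, the others 6.15 and 6.63). Of the B and T cell markers, Ms4a1 (383 CPM) and Ptprc (598 CPM) were higher there than in sEVCTRL replicate 3 (306 and 580 CPM). The other markers of that list were lowest of the group in sEVCTRL replicate 2. No marker of these lists was at 0 in any library. Their part in the member values was not tested.

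**Figure D5:**
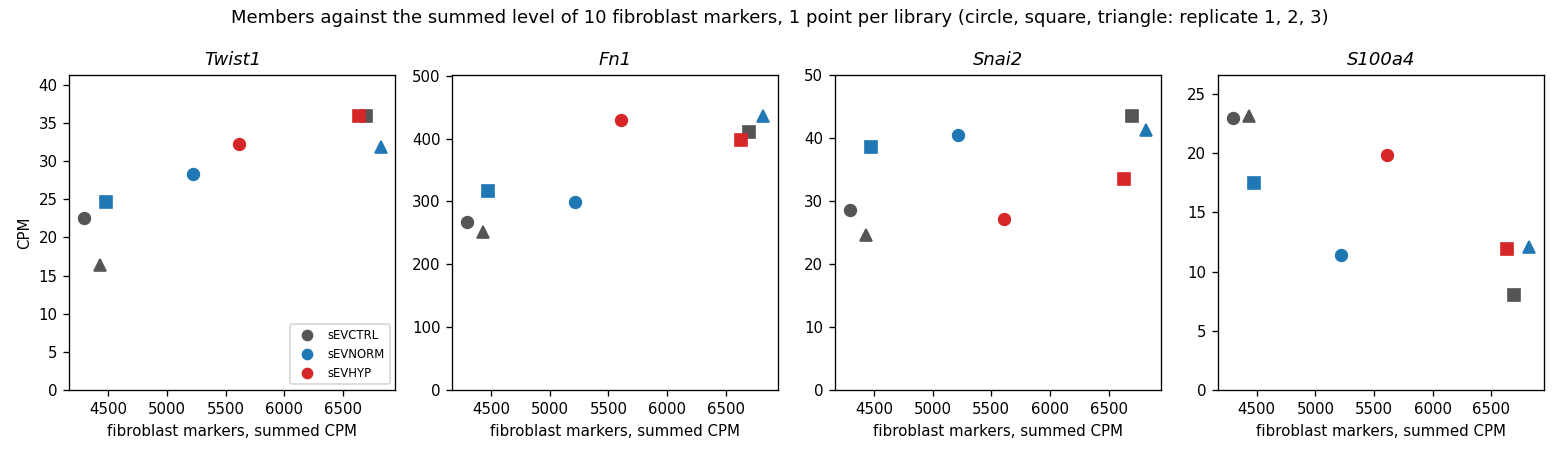
CPM of Twist1, Fn1, Snai2 and S100a4 (y axes from 0) against the summed CPM of 10 fibroblast markers (x axis), 1 point per library, colored by group. The libraries with the most fibroblast markers, 1 of each group (6632 to 6820 CPM), hold 3 of the 4 highest Fn1 values and S100a4 values of 8.07 to 12.1 CPM.

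Members were also compared with each other and with marker lists over the 8 libraries, by Pearson's r of log2 CPM with an exact permutation P. Of 45 pairs of members, 0 passed after Benjamini-Hochberg adjustment and 5 had an unadjusted P under 0.05. Twist1 and Fn1 had the highest r, 0.891 (exact permutation P = 0.00188, adjusted P = 0.0848), with Spearman's rho of 0.738 (exact permutation P = 0.0458, adjusted P = 0.618). It was 0.767 without the 2 libraries farthest from the median of Twist1 and 0.840 within groups. Snai2 and S100a4 ran in opposite directions, with r of -0.851 (exact permutation P = 0.0130, adjusted P = 0.292) and rho of -0.857 (exact permutation P = 0.0107, adjusted P = 0.482), r of -0.774 without the 2 farthest libraries and -0.943 within groups. Of 120 pairs of a member with one of 12 marker lists, 0 passed the adjustment and 16 had an unadjusted P under 0.05. By Pearson's r the strongest of these was Twist2 with the B and T cell list, at -0.867 (exact permutation P = 0.00585, adjusted P = 0.346), with rho of -0.905 (exact permutation P = 0.00456, adjusted P = 0.183), r of -0.659 without the 2 farthest libraries and -0.856 within groups. Positive r of Twist2 with the fibroblast, white adipocyte, endothelium, pericyte, skeletal muscle and Schwann cell lists also had P under 0.05. It was 0.789 with the white adipocyte list and 0.842 with the Schwann cell list (exact permutation P = 0.02 and 0.0093, adjusted P = 0.346 each). Their rho was 0.905 and 0.714 (exact permutation P = 0.00456 and 0.0576, adjusted P = 0.183 and 0.399). Without the 2 farthest libraries these r were 0.533 and 0.53. S100a4 had r of -0.792 with the luminal list (exact permutation P = 0.0131, adjusted P = 0.346), with rho of -0.786 (exact permutation P = 0.0279, adjusted P = 0.372), r of -0.876 without the 2 farthest libraries and -0.842 within groups. Twist1 and the basal epithelial list differed between the measures, with r of 0.637 (exact permutation P = 0.0828, adjusted P = 0.445) and rho of 0.905 (exact permutation P = 0.00456, adjusted P = 0.183), r of 0.972 without the 2 farthest libraries and 0.510 within groups. With the fibroblast list (Pdgfra, Dpt, Lum, Dcn and 6 others, none a member), r was 0.798 for Twist1 (exact permutation P = 0.0148, adjusted P = 0.346), 0.809 for Fn1 (exact permutation P = 0.0289, adjusted P = 0.346) and -0.806 for S100a4 (exact permutation P = 0.0248, adjusted P = 0.346). The rho of these 3 pairs was 0.690, 0.667 and -0.667 (exact permutation P = 0.0694, 0.0831 and 0.0831, adjusted P = 0.399 each). Their r was 0.875, 0.831 and -0.884 without the 2 farthest libraries and 0.796, 0.816 and -0.857 within groups. Twist2 had r of 0.764 with the fibroblast list (exact permutation P = 0.0273, adjusted P = 0.346) and rho of 0.714 (exact permutation P = 0.0576, adjusted P = 0.399). For Twist2 this r was 0.538 without the 2 farthest libraries and 0.781 within groups. Zeb2 had its highest r with the basal epithelial list, 0.851 (exact permutation P = 0.00474, adjusted P = 0.346, rho 0.786 with exact permutation P = 0.0279 and adjusted P = 0.372), which was 0.430 without the 2 farthest libraries and thus rested on them, and 0.899 within groups.

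For each member, the tested genes with the most similar pattern were named by Pearson's r of log2 CPM over the 8 libraries, as a description of libraries that share their depth and cell makeup. Twist1 was closest to Zbed3 (r = 0.994), Golim4 (0.991) and Pi4k2b (0.980), Zeb1 to Blzf1 (0.982), Pcdhb13 (0.958) and Naalad2 (0.950), and Zeb2 to Fgfbp1 (0.979, with 0 to 34 counts), Tob1 (0.962) and Triobp (0.961). Snai1 was closest to Pde8b (0.975), 9030624G23Rik (0.945) and Ago4 (0.943), Snai2 to E430024I08Rik (0.969), Ttc30b (0.966) and Nbr1 (0.965), and Twist2 to Pfkfb1 (0.962), Hoxc5 (0.954) and Maob (0.950). Among the markers, Cdh2 was closest to Ltbp2 (0.955), Dchs1 (0.946) and Rasd1 (0.916), Vim to Smim1 (0.981), Cavin3 (0.970) and Hsd11b2 (0.968), Fn1 to Gm8228 (0.988), Crispld1 (0.978) and Gm48035 (0.975), and S100a4 to Rab37 (0.984), Gm45855 (0.976) and Arl6ip4 (0.973). Of these 30 genes, 12 were also among the 3 closest by Spearman's rho. No member was among the genes closest to another member.

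The other genes of the pathway were taken from lists of EMT-linked transcription factors, epithelial genes repressed in EMT, TGF-beta and Notch signals, and further mesenchymal effectors, 83 genes in all. With an unadjusted P under 0.05, 3 of them passed for sEVHYP against sEVNORM, 4 for sEVHYP against sEVCTRL and 2 for sEVNORM against sEVCTRL, beside 3.95%, 2.45% and 1.63% of all tested genes, and 0 passed an adjusted P of 0.05 with edgeR in any comparison. With DESeq2 on only the 2 groups, 1 of them, Lbx1, passed it in each sEVHYP comparison.

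Of the 14 other EMT-linked factors, 13 were tested. The one that passed was Lbx1, a homeobox factor known from migrating muscle precursors and one of the genes the study followed in luminal cells, higher with sEVHYP in both comparisons. It had 8, 13 and 5 counts with sEVCTRL, 6, 1 and 7 with sEVNORM, and 78 and 183 with sEVHYP. With sEVHYP, its log2 fold change was 4.99 against sEVNORM (SE 0.69, adjusted P = 0.807) and 3.94 against sEVCTRL (SE 0.64, adjusted P = 1). No tested gene had a lower edgeR adjusted P in the first of these comparisons. Both Lbx1 calls were kept in 6 of 6 other settings in which it was tested. With each library left out in turn, the values were 4.07 to 5.54 against sEVNORM and 3.04 to 4.5 against sEVCTRL. The skeletal muscle markers given above were higher in both sEVHYP libraries than with sEVNORM, and sEVCTRL replicate 2 had 9458 CPM of them and 13 Lbx1 counts. Their part in the Lbx1 values was not tested. Nanog, a pluripotency factor, had 4 to 15 counts per library and was not tested. The median log2 fold change of the tested factors was 0.04, 0.13 and 0.11 for sEVHYP against sEVNORM, sEVHYP against sEVCTRL and sEVNORM against sEVCTRL.

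Of the 26 epithelial genes that EMT factors repress, 0 passed in the sEVHYP comparisons in either direction, and 1 passed for sEVNORM against sEVCTRL. Cdh1, which encodes E-cadherin, was at 27.5, 45.5 and 47.5 CPM with sEVCTRL, 55.7, 36.4 and 46.9 CPM with sEVNORM, and 58.4 and 49.96 CPM with sEVHYP. Both sEVHYP libraries lay above the sEVCTRL libraries and 1 of them above the sEVNORM range. The log2 fold change of Cdh1 was 0.43 for sEVHYP against sEVCTRL (SE 0.26, fold 1.35, 95% confidence interval 0.896 to 2.03), 0.23 for sEVHYP against sEVNORM (SE 0.26) and 0.21 for sEVNORM against sEVCTRL (SE 0.24). Epcam, whose promoter window is printed above, was at 63.5, 106 and 86.7 CPM, 128, 76.9 and 102 CPM, and 106 and 96.6 CPM in the same order. Its groups overlapped, with log2 fold changes of -0.02, 0.25 and 0.26 (SE 0.26, 0.26 and 0.23) for sEVHYP against sEVNORM, sEVHYP against sEVCTRL and sEVNORM against sEVCTRL. The gene that passed was Ovol1, a zinc finger factor of epithelial identity, with 6, 10 and 6 counts with sEVCTRL, 23, 16 and 18 with sEVNORM, and 7 and 13 with sEVHYP (log2 fold change 1.17, SE 0.50, adjusted P = 1). With libraries left out in turn it kept the call without sEVCTRL replicate 2 and lost it without each of the other 7, at values of 1.04 to 1.37 over all 8. It was also lost without a filter on low counts, with both DESeq2 fits and with the replicate block. The median log2 fold change of the 26 genes was 0.04 for sEVHYP against sEVNORM, 0.20 for sEVHYP against sEVCTRL and 0.21 for sEVNORM against sEVCTRL.

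Of the 18 TGF-beta and Notch genes, 1 rose and 1 fell for sEVHYP against sEVNORM. Smad3, which carries the TGF-beta signal to the nucleus, was at 34.5, 38.4 and 30.0 CPM with sEVCTRL, 30.8, 33.9 and 32.3 CPM with sEVNORM, and 39.0 and 52.2 CPM with sEVHYP. With sEVHYP, Smad3 had a log2 fold change of 0.50 against sEVNORM (SE 0.18, adjusted P = 1), and the call was lost without sEVNORM replicate 1, sEVNORM replicate 3 or sEVHYP replicate 2, where the lowest value was 0.27. Against sEVCTRL it was 0.41 (SE 0.18, adjusted P = 1), a call kept with 2 of the 8 libraries left out and in 1 of 7 other settings. It was lost without sEVCTRL replicate 1 or 3, any sEVNORM library or sEVHYP replicate 2, where its value was as low as 0.17. Hes1, a Notch target, was at 25.02, 27.9 and 31.0 CPM with sEVCTRL, 39.4, 31.0 and 27.4 CPM with sEVNORM, and 20.8 and 20.6 CPM with sEVHYP. Both sEVHYP libraries were the lowest of the 8, with a log2 fold change of -0.65 against sEVNORM (SE 0.20, adjusted P = 1) that passed with each of the 8 libraries left out and in 7 of 7 other settings.

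Bmp4, a ligand of the same superfamily, was the gene of this list that fell against sEVCTRL. It was at 3.50, 3.05 and 4.16 CPM with sEVCTRL, 2.41, 1.86 and 1.80 CPM with sEVNORM, and 1.24 and 1.93 CPM with sEVHYP, or 27 to 76 counts per library. Against sEVCTRL its log2 fold change was -1.18 with sEVHYP (SE 0.35, adjusted P = 1) and -0.82 with sEVNORM (SE 0.30, adjusted P = 1), and no sEVCTRL library overlapped the others. The first call was lost without sEVHYP replicate 1 (log2 fold change -0.88), and the second without sEVCTRL replicate 3, sEVNORM replicate 2 or sEVNORM replicate 3 (-0.69 at the smallest). The Bmp4 call with sEVNORM was also lost with the replicate block. The median log2 fold change of the 18 genes was -0.08, 0.01 and 0.00 for sEVHYP against sEVNORM, sEVHYP against sEVCTRL and sEVNORM against sEVCTRL.

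Of the 25 further mesenchymal effectors, 1 passed. Cdh11, a cadherin of mesenchymal cells, was at 58.5, 63.9 and 43.8 CPM with sEVCTRL, 59.0, 88.2 and 69.7 CPM with sEVNORM, and 76.3 and 87.0 CPM with sEVHYP, a log2 fold change of 0.56 for sEVHYP against sEVCTRL (SE 0.22, adjusted P = 1). The call was lost without sEVCTRL replicate 3 or sEVHYP replicate 2, with 0.42 as the lowest value. Mmp9, a matrix-degrading protease, was at 10.2, 11.99 and 7.44 CPM with sEVCTRL, 15.1, 7.84 and 8.13 CPM with sEVNORM, and 9.48 and 9.41 CPM with sEVHYP, and its groups overlapped. Its log2 fold change was -0.13 for sEVHYP against sEVNORM (SE 0.33). The median log2 fold change of the 25 genes was 0.10, 0.08 and -0.08 for the same 3 comparisons.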

How the data were processed

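RNA of whole mammary glands was sequenced in 8 libraries (polyA RNA, Lexogen SENSE kit). The authors mapped reads to mm10 (GRCm38) using STAR, and RSEM 1.2.12 with the annotation of Ensembl release 89 gave the gene counts. The deposited values are estimated counts given as whole numbers, without normalization. How they were rounded, and whether strand was used, are not given in the sources used here. Symbols and positions came from GENCODE (GRCm38). Groups came from the sample labels, and vesicle names, mice and weeks from the study's methods.

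Tests used edgeR 4.0.16 under R 4.3.3: filterByExpr (minimum count 10), TMM and the two-sided quasi-likelihood F-test in 1 model of 3 groups (5 residual and 4.08 prior degrees of freedom), with Benjamini-Hochberg adjustment over 17858 tested genes. An unadjusted P of 0.05 is the study's threshold. Intervals are 95% and come from the fitted SE. The procedure was tested on simulated data. Correlations used log2 CPM with a prior count of 2. Alternatives were DESeq2 1.42.0 (all libraries, or 2 groups), edgeR on 2 groups, DESeq2 size factors, other filters, a replicate block and leaving out each library.

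The members and gene lists were chosen with earlier results of these data known. Named genes were all members, up to 3 listed genes per direction and comparison with the lowest unadjusted P under 0.05, Cdh1, Epcam, Lbx1 and Nanog, and the 3 genes most like each member. Mmp9 and Crb3 were named outside this rule, with their values known. The labels give no batch or date.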

Additional observations from a re-analysis of the deposited data

How the results depend on the processing

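The 30 member log2 fold changes (10 genes, 3 comparisons) were computed under 15 alternatives, 450 values in all. Of these, 417 kept their direction and stayed above an unadjusted P of 0.05, 8 passed it and 25 changed sign, each of the 25 with a library left out, and 0 had an adjusted P under 0.05. The count of members with an unadjusted P under 0.05, 0 in the report, was 1 for sEVHYP against sEVNORM with DESeq2 or edgeR on the 2 groups. With a library left out it was 0 to 1 in that comparison, 0 to 2 for sEVHYP against sEVCTRL and 0 to 3 for sEVNORM against sEVCTRL, with the highest values without sEVCTRL replicate 2. The 3 pathway genes for sEVHYP against sEVNORM became 5 without a filter and 7 with DESeq2 on the 2 groups. The 4 for sEVHYP against sEVCTRL became 8 without a filter, 8 with the replicate block and 3 to 14 with a library left out. The 2 for sEVNORM against sEVCTRL became 1 with at least 10 counts in every library, 1 with the replicate block and 1 to 8 with a library left out.

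Leaving out each library in turn turned the sign of these log2 fold changes, none of which passed an unadjusted P of 0.05 with all 8 libraries. For sEVHYP against sEVNORM the ranges were Zeb1 -0.093 to 0.19, Twist2 -0.16 to 0.55, Vim -0.10 to 0.039 and S100a4 -0.19 to 0.54. For sEVHYP against sEVCTRL the ranges were Snai1 -0.17 to 0.0296, Snai2 -0.26 to 0.19, Zeb1 -0.14 to 0.15, Twist2 -0.22 to 0.49 and S100a4 -0.59 to 0.13. For sEVNORM against sEVCTRL the ranges were Zeb1 -0.11 to 0.03, Zeb2 -0.057 to 0.12, Twist1 -0.0475 to 0.54, Twist2 -0.37 to 0.17, Vim -0.11 to 0.031 and Fn1 -0.0073 to 0.44.

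Replicate numbers are shared by the labels, but the deviations of same-numbered libraries from their group means correlated at -0.42 to 0.37, so the numbers do not pair the samples, and the block, like the other settings not named here, left the count of members at 0. With the block, Bmp4 and Ovol1 no longer passed for sEVNORM against sEVCTRL, nor Smad3 for sEVHYP against sEVCTRL. The number of all genes with P under 0.05 moved with the filter and the library: without a filter it was 1102, 672 and 533 in place of 706, 438 and 291. With DESeq2 on the 2 groups it was 1195 in place of 706, and 83 genes then passed an adjusted P of 0.05. Without sEVCTRL replicate 2 it was 986, 1472 and 1018, without sEVHYP replicate 2 it was 415 in the first comparison, and without sEVCTRL replicate 1 it was 568 in the last. The causes were not tested. With 1 sEVHYP library left, it was assumed to vary like the other groups. Snai1, at 28 to 46 counts, is limited most by depth, and the 2 sEVHYP libraries limit every comparison with them.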
